A study of Mus musculus with 2 samples.

Results

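The histone cluster genes are the replication-dependent histone genes of the mouse genome, chosen here as every listed gene whose symbol begins with Hist1h, Hist2h, Hist3h or Hist4h. The rule took 67 of the 32285 genes in the count matrices. With at least 20 UMIs (unique molecular identifiers, each standing for 1 captured RNA molecule) over both libraries, 50 of the 67 were quantified singly, and the other 17, of which 3 had no UMI in either library, were taken as 1 sum. The data are single-nucleus RNA-seq of the cerebellum at postnatal day 1, with 1 library from control littermates and 1 from cKO mice, in which the labels give floxed Tox3 as deleted by Nestin-cre. Each library was made from the pooled tissue of 12 mice. The genotype label of the control library is Tox3f/f, while its library name allows Tox3f/f or Tox3f/+, and the genotype label of the other library is Nestin-cre;Tox3f/f. Nestin-cre acts in neural progenitors, so that neurons and glia derive from recombined cells whereas microglia and vessels do not. The control labels name no Nestin-cre.

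Histone cluster genes encode the linker histone H1 and the core histones H2A, H2B, H3 and H4, which package newly made DNA. They are switched on as cells enter S phase and their mRNAs are destroyed when replication ends. Their mRNAs are the exception among protein-coding messages in that they normally end in a short stem-loop, bound by Slbp, and not in a poly(A) tail. The libraries were primed on poly(A), so a UMI from such a gene comes from a polyadenylated transcript or from priming on an internal run of adenines, and the levels below are levels of that captured RNA. In the newborn cerebellum the most numerous dividing cells are the granule cell progenitors of the external layer, with astroglial, oligodendrocyte and interneuron progenitors dividing beside them.

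Of the 67 genes, 54 lie in the Hist1 cluster on chromosome 13 (mm10, between 21715763 and 23934851), 10 in the Hist2 cluster on chromosome 3 (96219865 to 96270132), 2 in the Hist3 cluster on chromosome 11 (58948920 to 58956830), and 1, Hist4h4, on chromosome 6 (136801553 to 136804415). They comprise 6 genes for H1, 18 for H2A, 18 for H2B, 12 for H3 and 13 for H4. A 16-base stem-loop lay in the annotated transcript after the stop codon in 46 of the 67, with the same letters in 26 of them. The sites of members on which the results turn are shown 5′ to 3′ with the 16 bases of the stem-loop in capitals, because the end that this site makes is the end that poly(A) priming misses.
Hist1h2ap: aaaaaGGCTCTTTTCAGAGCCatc
Hist1h1e: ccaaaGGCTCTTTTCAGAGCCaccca
Hist3h2ba: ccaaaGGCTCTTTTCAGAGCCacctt
Hist2h2ac: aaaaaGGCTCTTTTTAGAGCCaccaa
Hist1h3c: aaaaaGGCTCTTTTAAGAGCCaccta
Hist1h4i: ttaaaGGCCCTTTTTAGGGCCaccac

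The stem-loops of Hist1h2ap, Hist1h1e and Hist3h2ba were identical in their 16 bases, although these 3 genes differed in the results below. The annotated sequence beyond the site differed as well. The transcript model of Hist1h2ap, an H2A gene, stopped 3 bases past the stem-loop, that of Hist3h2ba, an H2B gene, ran on for 169 bases, and that of Hist1h1e, an H1 gene, for 1153 bases. In all, 23 models ran at least 100 bases past the stem-loop, 23 stopped sooner, 13 ended at the stop codon, Hist1h1b among them, and 8 went past the stop codon with no stem-loop found. Reads of these genes are also hard to tell apart. In 27 members under 50% of the 90-base windows of the transcript, the length of the sequenced read, were found in no other transcript, with 7.63% in Hist1h2ap and 100% in Hist1h1b. The model of Hist1h2be spanned 37455 bases and overlapped Hist1h1e on the same strand, so reads can be split between these genes or lost.

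A RefSeq promoter (GRCm38.p6) was matched by position to 55 of the 67 members. Within the 120 bases before the start, TATAAA was present on the sense strand in 18 of the 55 (32.7%), against 4.19% of all 32851 RefSeq promoters in windows of the same length. CCAAT was present on either strand in 42 of the 55 (76.4%), against 21.3% of all promoters. A pair of promoters that hold both motifs is shown in the sense of transcription with the motifs in capitals. Each holds TATAAA and CCAAT, though not in the same number or place, and these members stood apart in dividing nuclei.
Hist1h1b, chr13:21780626-21780745, minus strand: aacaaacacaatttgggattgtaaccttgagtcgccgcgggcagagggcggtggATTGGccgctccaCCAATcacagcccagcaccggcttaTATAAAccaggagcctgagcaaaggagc
Hist3h2ba, chr11:58948791-58948910, plus strand: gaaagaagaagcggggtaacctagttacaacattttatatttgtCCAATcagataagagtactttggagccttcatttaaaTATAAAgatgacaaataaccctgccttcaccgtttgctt

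The control library held 4857 barcodes with 22325208 UMIs and the cKO library 6946 barcodes with 33726533 UMIs, and they shared 9 barcodes. After removal of putative doublets and of barcodes rich in mitochondrial UMIs, 4667 and 6555 remained, with median depths of 3978 and 4025 UMIs. Tox3 was present in the control library at 103.8 CPM (UMIs of a gene per 1000000 UMIs, 95% interval 99.4 to 108) and in the library labelled cKO at 118 CPM (115 to 122). The deleted part of the gene may lie outside the captured RNA, and the genotype labels were therefore not checked by this level. As there was 1 library per group, no difference between libraries has a replicate check. All intervals are 95% intervals that cover counting error only. Barcodes under 1000 UMIs are called shallow droplets and were kept apart, 975 in the control and 664 in the cKO library. The remaining barcodes were called dividing where 58 genes of S phase and mitosis, none of them a histone, together reached 2000 CPM on at least 5 UMIs from 3 genes, and non-dividing below 1000 CPM. This gave 645 dividing and 2588 non-dividing nuclei in the control library, and 528 and 4866 in the cKO library.

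Histone cluster RNA was enriched in dividing nuclei of both libraries. All members together stood at 659.6 CPM in dividing and 197 CPM in non-dividing control nuclei, a ratio of 3.35 (3.16 to 3.55). The cKO levels were 347 and 84.4 CPM, a ratio of 4.11 (3.78 to 4.47). The genes that defined the gate, which had to differ, showed ratios of 16.6 and 20.04. Dividing nuclei made up 13.8% of control and 8.06% of cKO nuclei and droplets, and held 28.5% and 21.4% of the histone cluster UMIs. Most of these UMIs thus lay outside the dividing nuclei.

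Single nuclei carried few of them. The median dividing nucleus had 2 histone cluster UMIs in the control and 1 in the cKO library, and 14.9% and 35.2% of dividing nuclei had none. The highest value in 1 nucleus was 78 in the control and 11 in the cKO library. At least 10 UMIs were found in 12 control and 2 cKO nuclei, all of which were dividing, while no non-dividing nucleus had more than 8.

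Of 44 members with enough UMIs for this comparison, 38 were higher in dividing nuclei by at least 2-fold in the control library, and the interval lay above 1 for 36. The background was 16.6% of all genes tested, so that the members' share of 86.4% was far above it. The median log2 ratio was 1.78 over the members and 0.22 over all genes. In the cKO library 36 of 44 were higher, against a background of 17.5% of all genes, with the interval above 1 for 25. There the medians were 2.29 and 0.21. No member was lower by 2-fold in either library. Median-of-ratios scaling, which moved all log2 ratios of this comparison by 0.27, called 37 and 34 of the 44 members. It gave ratios of the sum of 2.77 and 3.41. The share of all genes called with this scaling was not computed.

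The linker histones bind the DNA between nucleosomes. The sum of H1 members was 4.04-fold (3.62 to 4.51) higher in dividing nuclei of the control and 5.64-fold (4.88 to 6.51) of the cKO library, and all 5 H1 genes tested passed 2-fold in both. Hist1h1b, the second most abundant member, gave 46.2 UMIs per 100 dividing, 16 per 100 non-dividing nuclei and 18.7 per 100 shallow droplets in the control library. The corresponding cKO values were 28.8, 5.32 and 6.93. Its non-dividing nuclei thus carried no more of it than droplets with a fraction of their depth. In CPM its ratio was 3.81 (3.27 to 4.43) in the control and 7.05 (5.73 to 8.64) in the cKO library. Hist1h1e gave 27.4 and 8.08 UMIs per 100 dividing and non-dividing control nuclei, and 14.8 and 5.05 in the cKO library. Hist1h1c, also a somatic H1 gene, was higher in dividing nuclei 4.08-fold (2.69 to 6.16) in the control and 3.74-fold (2.11 to 6.34) in the cKO library.

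H2A members, which pair with H2B in the nucleosome, were led by Hist1h2ap, the most abundant member of all with 1221 UMIs in the control and 386 in the cKO library. It gave 58.3 UMIs per 100 dividing nuclei, 19.6 per 100 non-dividing nuclei and 24.9 per 100 shallow droplets in the control library. The cKO library gave 19.3, 4.69 and 5.42. Dividing nuclei were thus set apart in both libraries, and non-dividing nuclei were at or below the droplets. The CPM ratio was 3.92 (3.42 to 4.49) in the control and 5.37 (4.21 to 6.81) in the cKO library. Hist1h2ae followed with ratios of 3.74 (2.81 to 4.96) and 5.65 (3.33 to 9.35), Hist1h2ab with 2.69 (1.70 to 4.18) and 5.54 (2.55 to 11.4). Hist2h2ac, of the Hist2 cluster, passed 2-fold in the control library at 2.61 (1.68 to 3.99), whereas its cKO ratio of 1.72 (0.525 to 4.40) rested on 5 dividing UMIs.

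H2B members had the lowest ratio of the 5 histone types, 2.50 (2.16 to 2.88) in the control and 2.68 (2.23 to 3.21) in the cKO library. The largest of them, Hist3h2ba, did not pass the 2-fold rule. It gave 9.77 UMIs per 100 dividing, 9.74 per 100 non-dividing nuclei and 7.59 per 100 shallow droplets in the control library. The cKO library gave 6.06, 6.89 and 7.53. All 3 populations overlapped within their intervals in each library. In CPM its ratios were 1.32 (0.987 to 1.75) and 1.15 (0.772 to 1.65). Hist3h2a, its neighbour on chromosome 11 and an H2A gene, had ratios of 0.930 (0.510 to 1.59) and 1.16 (0.584 to 2.10). Of the Hist3 members 0 of 2 were called in either library, against 35 of 36 Hist1 members in the control and 33 of 36 in the cKO library. Of the Hist2 members 3 of 5 and 2 of 5 were called, and Hist4h4 in the cKO library alone. The shares over all genes were 16.6% and 17.5%. The Hist3 pair thus stood outside the pattern of the Hist1 cluster, but was not alone in this. Hist2h4 had ratios of 0.756 in the control and 1.41 in the cKO library. With median-of-ratios scaling the sum of the Hist3 members was at 1.01 (control) and 0.955 (cKO). That of the Hist1 members was at 3.05 and 4.22, and that of the Hist2 members at 2.125 and 2.222.

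Hist1h2be, an H2B gene of the Hist1 cluster, had 12.2 UMIs per 100 dividing, 4.64 per 100 non-dividing control nuclei and 1.74 per 100 shallow droplets. For cKO these were 10.4, 3.39 and 0.452. It was the member of the 5 most abundant whose non-dividing nuclei lay clearly above the droplets, 2.66-fold (1.59 to 4.72) per barcode in the control and 7.505-fold (2.52 to 36.8) in the cKO library. Its long model overlaps that of Hist1h1e, and the split of reads between these genes is uncertain.

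The H3 and H4 genes, whose products form the core tetramer of the nucleosome, were less abundant. H3 members as a sum were higher 3.83-fold (3.07 to 4.77) in dividing control nuclei and 5.94-fold (4.15 to 8.42) in the cKO library, and H4 members 2.97-fold (2.52 to 3.49) and 3.12-fold (2.38 to 4.05). Hist1h4i was the steepest of the 15 most abundant members in both libraries, with 8.37 UMIs per 100 dividing and 1.39 per 100 non-dividing control nuclei. The corresponding cKO values were 4.17 and 0.678, and the CPM ratios 7.94 (5.11 to 12.5) and 8.004 (4.45 to 14.2). Hist1h4h and Hist1h4d had lower ratios of 2.50 (1.81 to 3.42) and 2.48 (1.76 to 3.46) in the control library, and of 2.48 (1.41 to 4.16) and 2.69 (1.35 to 4.97) in the cKO library. Hist1h3c stood at 3.50 (2.41 to 5.06) and 6.86 (3.08 to 14.6), and Hist1h3e at 3.05 (1.88 to 4.88) and 2.46 (1.05 to 5.10).

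The extremes of the ratio belonged to members with few UMIs. In the control library the highest were Hist1h3d at 11.9 (3.32 to 52.9) on 9 dividing and 4 non-dividing UMIs, Hist1h3g at 10.6 (3.30 to 39.5), and Hist1h4i. The lowest were Hist2h4 at 0.756 (0.0834 to 3.29), Hist3h2a and Hist3h2ba. On the cKO side Hist1h3g had 4 dividing UMIs and no non-dividing UMI. Next came Hist1h2bh at 72.0 (8.74 to 3313), Hist1h2ag at 48.0 (4.75 to 2365) and Hist1h3b at 24.0 (6.43 to 109). The first 2 of these rested on 1 non-dividing UMI each. The lowest were Hist1h4a at 0.924 (0.0217 to 6.15) and Hist1h4n at 1.09 (0.0254 to 7.51), each on 1 dividing UMI, and Hist3h2ba. The 17 members taken as a sum gave ratios of 4.63 (control) and 9.48 (cKO), on 28 and 15 dividing UMIs. Members with copies elsewhere in the cluster remain uncertain as single genes.

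**Figure D1:**
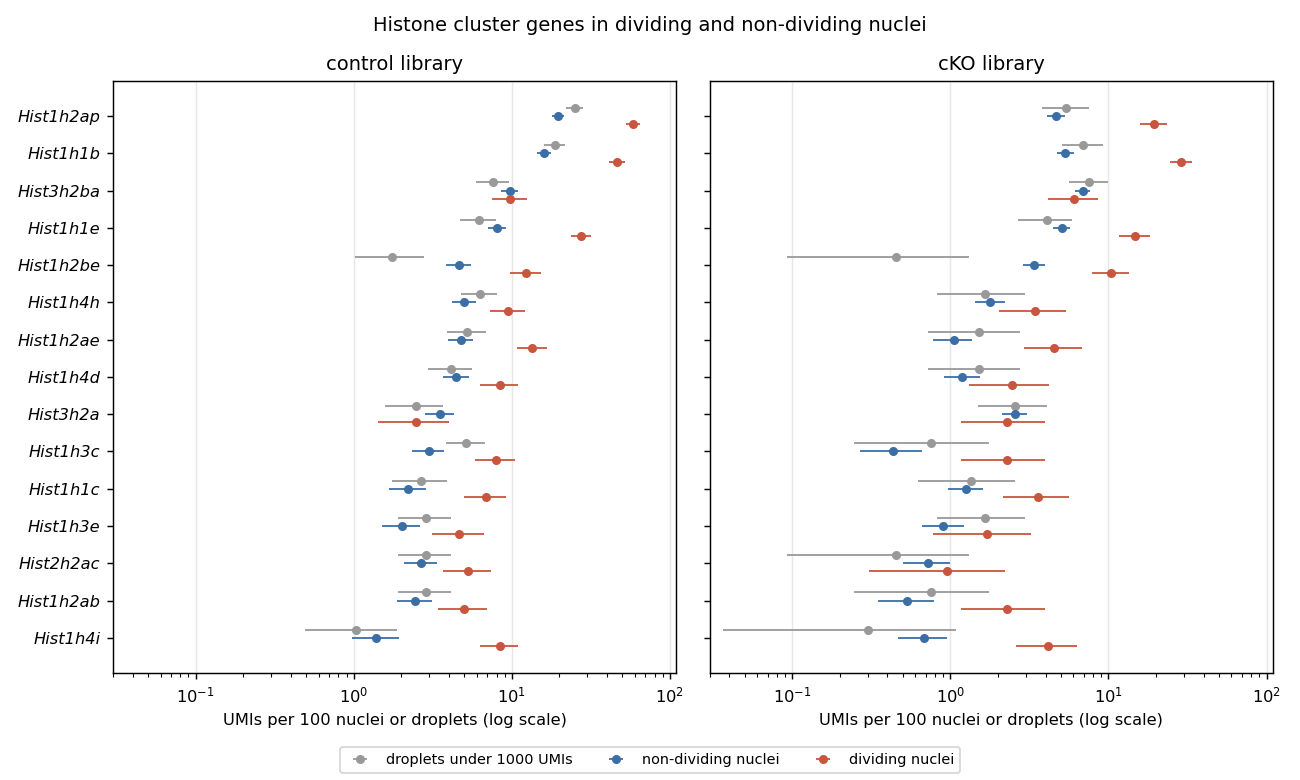
UMIs per 100 barcodes (log scale) of the 15 most abundant histone cluster genes in shallow droplets, non-dividing nuclei and dividing nuclei of each library, with exact Poisson 95% intervals. Hist1h2ap in control nuclei went from 19.6 (non-dividing) to 58.3 (dividing), whereas Hist3h2ba stood at 9.74 and 9.77.

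Outside dividing nuclei the number of histone cluster UMIs per barcode changed much less than depth. In the control library it was 125 per 100 shallow droplets, which had a mean depth of 646 UMIs, and 115 per 100 non-dividing nuclei. Non-dividing nuclei of 1000 to 2000, 2000 to 4000, 4000 to 8000 and over 8000 UMIs gave 114, 98.6, 118 and 131 per 100. Droplets of the cKO library gave 47.0 per 100, and the 4 depth ranges 30.8, 40.7, 45.4 and 54.9. From the range of 2000 to 4000 UMIs to that over 8000 UMIs, the rise lay beyond the intervals in both libraries. A wide range in depth among the nuclei thus went with a much smaller range in histone cluster UMIs. Over all non-dividing nuclei the count per barcode was 0.918 (0.858 to 0.982) of that in the droplets of the control and 0.951 (0.844 to 1.07) of the cKO library. The summed level in non-dividing nuclei was thus close to that of the droplets per barcode. How far it is background or expression was not tested, nor whether the shallow droplets hold nuclei. Some members departed from this closeness. Hist1h2be lay above the droplets per barcode in both libraries, as did Hist2h2be in the control library on 23 nuclear UMIs and 1 droplet UMI. The Hist3 members gave 10.1 per 100 control droplets. Non-dividing control nuclei held 1.72 per 100 of them in the lowest range, on 1 UMI, and 9.70, 14.5 and 16.5 in the 3 deeper ranges. Over all non-dividing control nuclei the Hist3 members were at 1.32 times (1.05 to 1.67) the droplets. In the cKO library they gave 10.1 per 100 droplets and 7.35, 10.2 and 12.1 in the 3 deeper ranges. Their excess over the droplets was -0.658 per 100 there, so this departure was not seen in the cKO library. Models that run on for 100 bases or more gave 42.7 per 100 control droplets and 39.1, 51.2 and 57.4 in the same 3 ranges. For cKO these were 25.6, and 23.3, 26.7 and 30.9.

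In dividing nuclei the count rose with depth. It went from 176 per 100 in control nuclei of 1000 to 2000 UMIs through 194 and 355 to 693.5 in those over 8000 UMIs. For cKO nuclei the 4 ranges gave 65.2, 109, 185 and 225 per 100, the last on 12 nuclei. Less the droplets of the same library, dividing nuclei held an excess of 167 UMIs per 100 in the control and 93.9 in the cKO library. By gene, the control excess was 33.4 for Hist1h2ap, 27.5 for Hist1h1b, 21.3 for Hist1h1e, 10.5 for Hist1h2be and 2.18 for Hist3h2ba. The cKO excess was 13.9, 21.9, 10.7, 9.97 and -1.47 in the same order. Hist1h2ap led in the control and Hist1h1b in the cKO library.

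**Figure D2:**
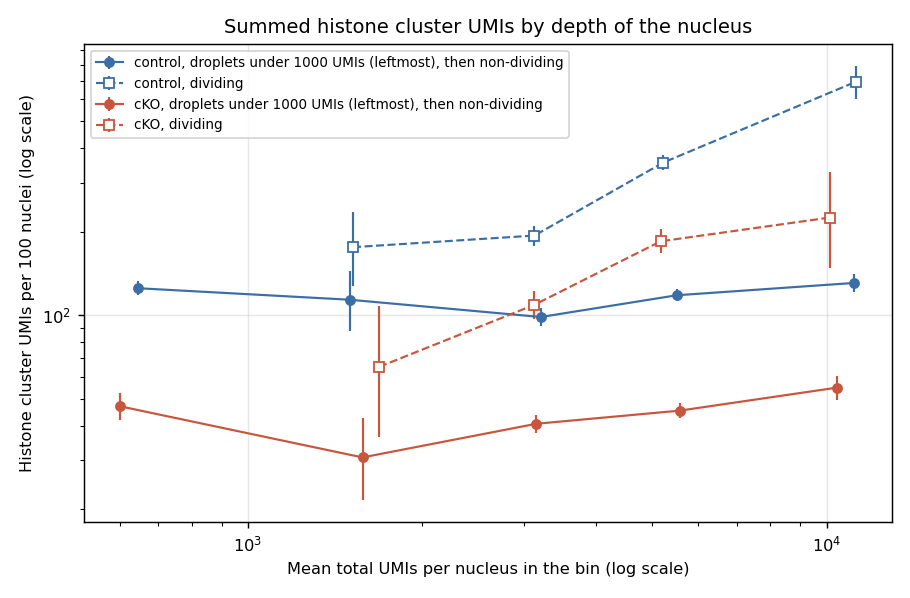
Histone cluster UMIs per 100 barcodes against the mean depth of the barcodes (log axes), by depth range, state and library, with exact Poisson 95% intervals. Non-dividing nuclei stay near the shallow droplets of their library (98.6 to 131 against 125 per 100 in the control library), while dividing nuclei climb with depth to 693.5 in the control and 225 in the cKO library.

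The same members were compared across cell classes. Nuclei gated by marker genes left 460 of 645 control and 227 of 528 cKO dividing nuclei in no class, and 27 and 17 in the granule lineage. Classes were therefore also taken from clusters made without histone cluster and gate genes and named by the gated nuclei they held. One cluster of 677 nuclei, 558 of them control, held 546 dividing nuclei. Tnfaip8, Gli2 and Ntn1 were among its leading genes in the control library, and its name rests on 36 of 45 gated nuclei. Of the granule lineage markers, Gli2, which transmits Sonic hedgehog signals, was at 643 CPM there against 47.2 in the other control nuclei, Mfap4 at 235 against 19.2 and Pax6 at 632 against 277, while Neurod2, a marker of granule cells that have stopped dividing, was at 29.3 against 69.9. Unc5c, at 2403 against 5020 CPM, and Cntn2, at 51.7 against 66.3, were also lower there, and the other listed markers were higher. In the cKO library Neurod2, Unc5c and Barhl1 were lower in this cluster and the others higher. Over the whole list of 12 markers the dividing nuclei of the class were at 0.849 (control) and 1.17 (cKO) of the mean of all nuclei. The oligodendrocyte lineage list stood higher in the same nuclei, at 1.49 in both libraries. The class is therefore called granule lineage-like.

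Of the named cluster-based control classes compared, dividing granule lineage-like nuclei had the highest CPM, 750.1 over 451 nuclei. The 1567 non-dividing nuclei of that class stood at 216 CPM, a ratio of 3.47 (3.23 to 3.72). In the cKO library the levels of that class were 359.7 and 93.9 CPM, a ratio of 3.83 (3.23 to 4.52), on 123 dividing nuclei. Dividing microglia-like cKO nuclei stood higher, at 619.5 CPM. Per nucleus the control classes were closer, from 301 (granule lineage-like) to 262.5 (microglia-like) UMIs per 100. By the marker gate, dividing granule lineage control nuclei stood at 525.3 CPM on 27 nuclei. Gated dividing oligodendrocyte lineage (707.2), microglia (620.7), GABAergic interneuron (543.3) and astroglia (539.7) nuclei had higher values, and Purkinje cell nuclei (212.2) a lower one. In that order these rest on 25, 17, 20, 82 and 10 nuclei with 93, 43, 57, 224 and 26 UMIs. The granule lineage value rests on 75 UMIs, and the order of these gated classes was not tested. Nor was the nature of the 10 Purkinje cell nuclei that passed the dividing gate. By cluster, astroglia-like nuclei showed 511.5 and 255 CPM in the control library, a ratio of 2.01 (1.69 to 2.40). Their cKO levels were 335 and 143 CPM, a ratio of 2.35 (2.01 to 2.74). Oligodendrocyte lineage-like nuclei had ratios of 1.77 (1.26 to 2.49) and 1.91 (1.37 to 2.65).

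Microglia-like nuclei, which Nestin-cre does not reach, showed no clear gradient in the control library at 1.11 (0.687 to 1.79), on 16 dividing nuclei, and a ratio of 2.53 (1.80 to 3.60) on 50 dividing nuclei in the cKO library. The part of depth in these CPM ratios was not tested. Per nucleus the microglial ratios were 1.93 (1.199 to 3.13) and 3.23 (2.30 to 4.596). GABAergic interneuron-like nuclei had 16 dividing nuclei in the cKO library with 8 histone cluster UMIs, a ratio of 2.90 (1.23 to 5.86) in CPM but of 1.58 (0.671 to 3.19) per nucleus, which holds 1. Purkinje cell-like nuclei, which have left the cell cycle, had 128 UMIs per 100 in the control and 48.1 per 100 in the cKO library, close to the 125 and 47.0 of the droplets. Every non-dividing class, the unnamed one included, had 96.3 to 181 UMIs per 100 in the control library and 31.6 to 70.8 in the cKO library.

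**Figure D3:**
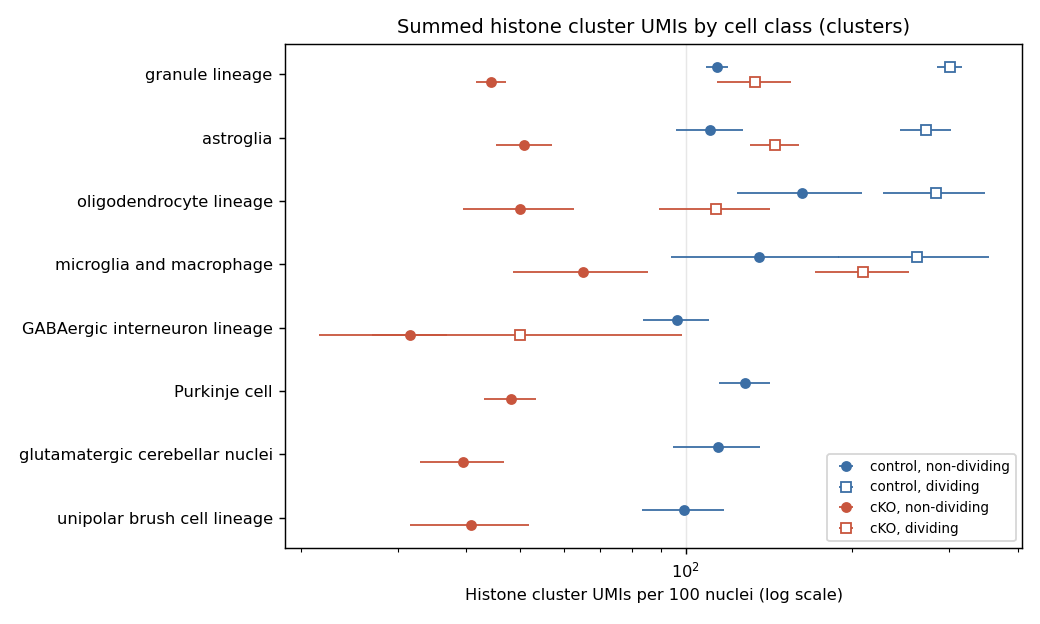
Histone cluster UMIs per 100 nuclei (log scale) by cluster-based class, filled for non-dividing and open for dividing nuclei of each library, with exact Poisson 95% intervals. Dividing granule lineage-like nuclei stood at 301 (control) and 133 (cKO) per 100, above the 125 and 47.0 per 100 of the droplets, and Purkinje cell-like nuclei at 128 and 48.1.

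Dividing nuclei were next split into 3 groups of equal size over both libraries, by the share of S-phase genes among their gate UMIs, with limits at 33.3% and 68.5%. These groups are ranges, with 58 control and 36 cKO nuclei within 2 percentage points of a limit. In the control library all members stood at 771 CPM in the group with the lowest S-phase share, 814 CPM in the middle group and 363 CPM in the highest. The cKO levels were 453, 359.6 and 178 CPM. The highest group was at 0.470 (0.412 to 0.536) of the lowest in the control and 0.393 (0.313 to 0.490) in the cKO library. Nuclei rich in mitotic RNA thus carried more histone cluster RNA in this capture than nuclei in which S-phase genes prevailed.

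The total of the gate genes moved the same way, from 9372 to 4511 CPM in the control and from 10010.8 to 4148 CPM in the cKO library. Its part in the result was not tested. The pattern held for each type in the control library, from 226 to 114 CPM for H1, from 284 to 104 CPM for H2A, from 116 to 65.6 CPM for H2B, from 51.3 to 26.5 CPM for H3 and from 93.8 to 53.0 CPM for H4. The sum of the Hist3 members was at 30.1, 28.0 and 24.2 CPM in the control and at 20.3, 20.6 and 20.7 CPM in the cKO library, with overlapping intervals. In the control library Hist3h2a had 10 UMIs in the lowest and 1 in the highest group, a ratio of 0.130 (0.0030 to 0.914), and the ratio of Hist3h2ba was 1.08 (0.568 to 2.05). The difference between both members was not tested.

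**Figure D4:**
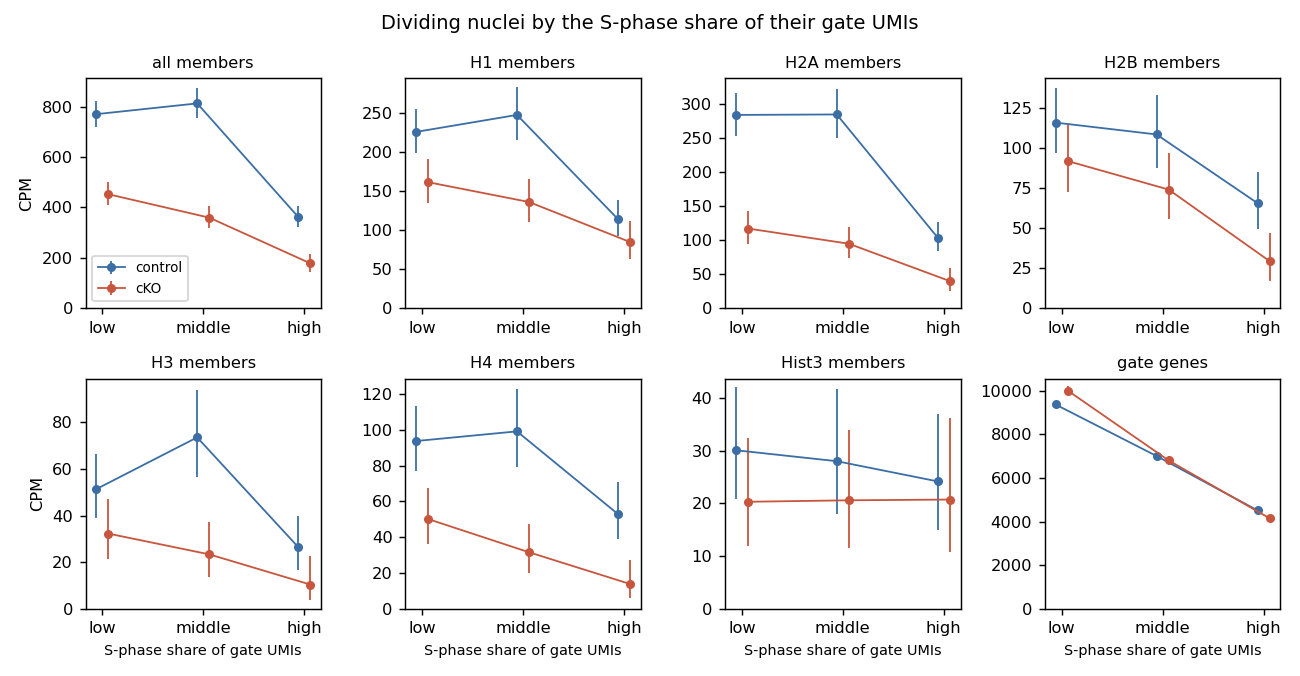
CPM of all members, of the members by type, of the Hist3 members and of the gate genes in 3 groups of dividing nuclei by the share of S-phase genes in their gate UMIs, for each library, with exact Poisson 95% intervals. All members stood at 771, 814 and 363 CPM from the lowest to the highest share in the control library and at 453, 359.6 and 178 CPM in the cKO library, while the sum of the Hist3 members lay between 20.3 and 30.1 CPM.

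The comparison of the libraries asked whether histone cluster RNA differed in the library labelled as a conditional Tox3 knockout. Over all kept barcodes the members stood at 322 CPM in the control, and in the library labelled cKO only 115 CPM were reached, which puts the ratio at 0.357 (0.342 to 0.372). Of the 50 members tested, 40 were lower by at least 2-fold and none was higher by it, against a background of 2.48% of all genes called lower. The interval lay below 1 for 44. The median log2 ratio was -1.68 over the members and -0.02 over all genes. In bulk terms, fewer dividing nuclei and less RNA per nucleus cannot be told apart in this total. The gate genes were at 0.617 of control in the same sum, and ribosomal protein and mitochondrial genes at 0.700 and 0.659.

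Members differed in how far apart the libraries were. Hist1h2ap was at 59.6 CPM in the control and 12.8 CPM in the cKO library, a ratio of 0.215 (0.191 to 0.241). The lowest ratios were those of Hist1h2bn at 0.0755 (0.0147 to 0.245), on 3 cKO and 27 control UMIs, Hist1h3f at 0.128 (0.0581 to 0.255), and Hist1h2ad and Hist1h2ak at 0.136 each. The highest were Hist4h4 at 0.941 (0.436 to 2.09), Hist2h4 at 0.906 (0.471 to 1.77) and Hist3h2a at 0.784 (0.623 to 0.989), with Hist3h2ba at 0.723 (0.633 to 0.827). Hist1 members as a sum were at 0.314 (0.299 to 0.329) and Hist3 members at 0.739 (0.658 to 0.829) of control, and these intervals did not overlap.

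By type, H3 and H2A were furthest apart at 0.245 (0.205 to 0.291) and 0.251 (0.232 to 0.272), followed by H4 at 0.315 (0.280 to 0.354), H1 at 0.413 (0.382 to 0.446) and H2B at 0.562 (0.516 to 0.613). By transcript model, members that stop soon after the stem-loop were at 0.230 (0.212 to 0.249), against 0.488 (0.460 to 0.518) for those that run on for 100 bases or more. The median over 18 single members of the first kind was 0.226, and over 19 of the second kind 0.408. It was lowest, 0.176, over 8 members whose model ends at the stop codon, and 0.340 over 5 with no stem-loop found. Hist1h2ap alone held 1607 of the 3273 UMIs of the first kind, and Hist3h2ba, Hist1h1e and Hist1h2be 2243 of the 4526 of the second.

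**Figure D5:**
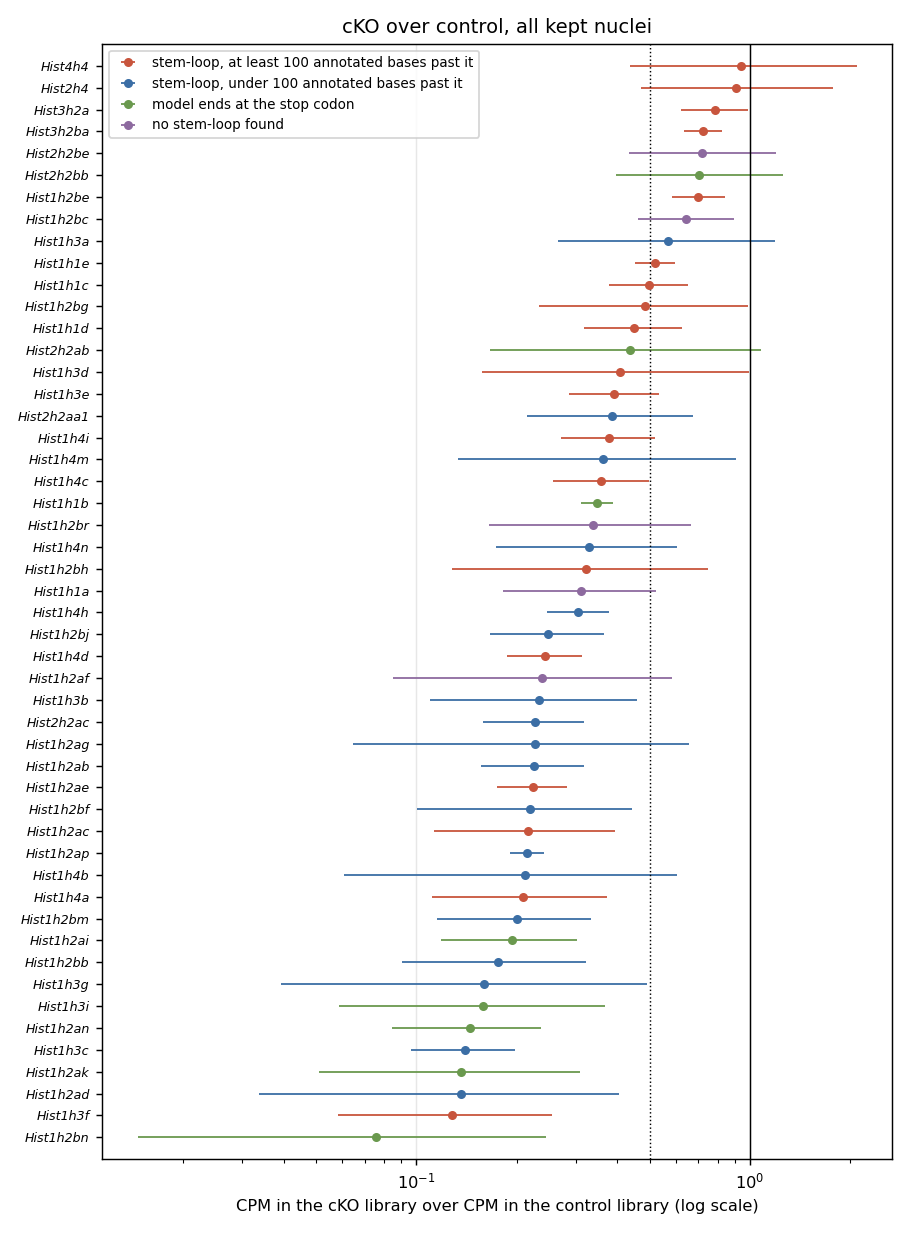
Ratio of CPM in the cKO library to CPM in the control library (log scale) over all kept barcodes, for the 50 members quantified singly, in order of the ratio and coloured by transcript model, with exact 95% intervals. The solid line marks 1 and the dotted line 0.5, and the ratios run from 0.0755 (Hist1h2bn) to 0.941 (Hist4h4).

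In dividing nuclei alone the difference was smaller. These nuclei differed in make-up between the libraries: by cluster, 69.9% of control and 23.3% of cKO dividing nuclei were granule lineage-like, and 19.7% and 49.8% were astroglia-like. The pooled ratio therefore mixes make-up and level, and the ratios within classes are given further on. All members were at 659.6 CPM in the control and 347 CPM in the cKO library, a ratio of 0.526 (0.483 to 0.573). The gate genes in the same nuclei were at 1.02 (1.00 to 1.04). These nuclei were picked in both libraries by the same minimum of gate genes, so that ratio was largely set by the gate. Of 23 members tested, 11 were lower by 2-fold, against a background of 3.81% of all genes, and the interval lay below 1 for 14. The medians were -0.92 for the members and -0.02 for all genes on the log2 scale. Ribosomal protein genes were at 0.713 and mitochondrial genes at 0.782 in these nuclei, and their part in the result was not tested.

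Within dividing nuclei H2A stood at 0.386 (0.327 to 0.455), H4 at 0.410 (0.311 to 0.535), H3 at 0.462 (0.328 to 0.642), H1 at 0.666 (0.575 to 0.769) and H2B at 0.701 (0.571 to 0.859) of control. The lowest members were Hist2h2ac at 0.196 (0.0598 to 0.503), Hist1h3c at 0.313 (0.152 to 0.596) and Hist1h4d at 0.321 (0.160 to 0.595). Hist1h2ap was at 0.361 (0.287 to 0.451). Hist1h1b, at 0.679 (0.555 to 0.828), and Hist1h1e, at 0.587 (0.443 to 0.770), were closer to the control library. The highest were Hist3h2a at 0.998 (0.431 to 2.25), Hist1h1d at 0.964 (0.522 to 1.75) and Hist1h2be at 0.927 (0.645 to 1.32), whose intervals held 1.

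The shallow droplets differed between the libraries as well. Shallow droplets of the cKO library held 0.375 (0.330 to 0.425) of the histone cluster UMIs per droplet of the control, close to the 0.389 (0.368 to 0.411) per non-dividing nucleus. Of 19 members tested in CPM in the droplets, 11 were lower by 2-fold, against a background of 4.38% of all genes. In the droplets Hist1h2ap was at 0.217 of control per droplet and Hist3h2ba at 0.992, the same order as in nuclei. In non-dividing nuclei, whose summed level per barcode was near that of the droplets, 23 of 34 members were lower, against a background of 1.80% of all genes. The CPM ratio of the sum in these nuclei was 0.429 (0.406 to 0.453). The lowest there were Hist1h2an at 0.122 (0.0551 to 0.245), Hist1h3c at 0.160 (0.0938 to 0.262) and Hist1h2ac at 0.179 (0.0647 to 0.430), and the highest Hist2h2bb at 1.11 (0.493 to 2.68), Hist4h4 at 0.953 (0.366 to 2.65) and Hist1h2be at 0.807 (0.634 to 1.03). The excess of dividing nuclei over the droplets of their own library, which leaves out the droplet level, was at 0.563 of control for all members, 0.416 for Hist1h2ap, 0.794 for Hist1h1b and 0.503 for Hist1h1e.

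By class, dividing granule lineage-like nuclei were at 0.480 (0.405 to 0.564) of control in CPM. By the marker gate, with 27 control and 17 cKO nuclei holding 75 and 29 UMIs, the ratio was 0.782 (0.491 to 1.22), an interval that holds 1 and whose lower limit lies just above the cluster-based value. Dividing nuclei of all other clusters were at 0.683 (0.606 to 0.770). Astroglia-like dividing nuclei were at 0.655 (0.564 to 0.759) and oligodendrocyte lineage-like ones at 0.422 (0.307 to 0.581). Microglia-like dividing nuclei were at 1.13 (0.784 to 1.66) in CPM and at 0.8 (0.554 to 1.17) per nucleus. The non-dividing nuclei of the named classes ranged from 0.383 in GABAergic interneuron-like to 0.560 in astroglia-like nuclei, and included microglia-like nuclei at 0.494 (0.314 to 0.785). The microglia-like value rests on 25 control and 80 cKO nuclei with 34 and 52 UMIs. The cause of the lower level in non-dividing nuclei was not tested. With 1 library per group, genotype and library cannot be told apart.

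Genes that act with the histone cluster genes were read from lists. Of 11 genes that process histone mRNA, 5 were higher in dividing nuclei by 2-fold in the control and 3 in the cKO library, against 16.6% and 17.5% of all genes. For the cKO library this share is not far above the background. Eri1, the exonuclease that trims the end of histone mRNA, led with 4.38 (3.43 to 5.59) and 3.94 (3.03 to 5.07). Casp8ap2, a component of the histone locus body, followed with 3.43 (2.94 to 4.004) and 3.08 (2.59 to 3.65), and Slbp, the stem-loop binding protein, with 3.08 (2.56 to 3.71) and 2.75 (2.23 to 3.37). The lowest in the control library were Cstf2, a cleavage factor, at 0.846 (0.686 to 1.03), Zfp473, a zinc finger protein of histone mRNA processing, at 1.06 (0.113 to 4.97) and Lsm11, a U7 snRNP protein, at 1.13 (0.738 to 1.69). In the cKO library Lsm10, its partner, passed 2-fold in the lower direction on 1 dividing UMI, at 0.334 (0.00822 to 1.98). The next lowest there were Zfp473 at 0.8004 (0.0190 to 5.202) and Cstf2 at 1.01. The median log2 ratios of this list were 0.75 and 0.22. With median-of-ratios scaling 3 genes were called higher in each library, and the share over all genes was not computed for that scaling.

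Of 13 histone chaperones and carriers, 8 were higher in dividing control nuclei and 7 in the cKO library, against the same 16.6% and 17.5% of all genes. The median log2 ratios were 1.75 and 1.62, and 0.22 and 0.21 over all genes. Chaf1b, a subunit of the assembly factor that follows replication, was highest at 19.2 (11.9 to 32.4) and 14.9 (9.20 to 24.4), but it is 1 of the gate genes. Asf1b, which hands over H3 and H4, had ratios of 7.66 (5.202 to 11.4) and 8.96 (6.01 to 13.3), Chaf1a 5.63 (4.55 to 6.97) and 6.09 (4.92 to 7.52), and Hjurp, the chaperone of Cenpa, 5.41 (4.74 to 6.17) and 6.37 (5.59 to 7.25). Atrx, which serves replication-independent H3.3, was lowest at 1.25 (1.18 to 1.32) and 1.13 (1.06 to 1.21), and Hira, with the same client, was at 1.46 (1.33 to 1.61) and 1.22 (1.09 to 1.37). Nap1l4, a carrier of H2A and H2B, was the next lowest in the control library at 1.70 (1.51 to 1.92), and Daxx, the partner of Atrx, in the cKO library at 1.21 (0.699 to 1.96).

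Of 11 histone genes outside the clusters, 3 were higher in dividing control nuclei and 5 in the cKO library, where the background was again 16.6% and 17.5%. The control share is not far above it. Cenpa, the H3 of centromeres, had ratios of 15.4 (11.5 to 20.96) and 33.4 (24.9 to 45.2). H2afv stood at 2.96 (2.53 to 3.47) and 3.31 (2.74 to 3.96), and H2afx, which marks broken DNA, at 2.84 (1.84 to 4.33) and 2.40 (1.25 to 4.30). The lowest were H2afy2 at 0.907 (0.778 to 1.05), H2afj at 1.15 (0.744 to 1.73) and H3f3b, an H3.3 gene, at 1.41 (1.30 to 1.52) in the control library. In the cKO library they were H2afy2 at 1.01 (0.844 to 1.19), H3f3a at 1.41 (1.28 to 1.55) and H2afy at 1.48 (1.28 to 1.71).

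Between the libraries these lists differed less than the cluster members. In dividing nuclei none of 9 tested processing genes, 13 chaperones and 11 other histone genes was lower or higher by 2-fold. Over all genes tested there, 3.81% were lower and 772 of 13687 higher, so lists this short could hold none at that rate. The medians of the 3 lists were -0.20, -0.26 and -0.03 on the log2 scale, against -0.92 for the histone cluster genes. Slbp was at 0.844 (0.663 to 1.07) of control in these nuclei. H2afx was lowest of the other histone genes at 0.518 (0.258 to 0.984), and Cenpa highest at 1.29 (1.04 to 1.59). Over all barcodes Chaf1b alone of the 3 lists passed 2-fold, at 0.472 of control. With 2.48% of all genes called lower, 1 gene in lists of 11, 13 and 11 is near the background.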

How the data were processed

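Single-nucleus libraries (10x Genomics 3′ v3.1) of control and cKO cerebellum were processed by the authors with bcl2fastq and Cell Ranger 7.0.1 against the mm10 reference, and the deposited values are raw UMI counts per gene and barcode. Whether intronic reads were counted is not given in the sources used here, and the published ambient-RNA, doublet and gene filters are not in these files. Barcodes over 25% mitochondrial UMIs (1 control, 5 cKO) and the 0.8% per 1000 barcodes with the highest Scrublet scores (189 and 386) were removed. UMIs were summed per library and population, scaled to CPM or per 100 barcodes, and given with exact Poisson intervals. Ratios have conditional exact binomial intervals, with no p-value, as there was 1 library per group. A gene was called at a CPM fold of 2 on at least 20 UMIs over the nuclei compared, in members and all genes alike, with 0.5 counts added for medians.

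A nucleus was put in the class whose markers had the highest Pearson residual, of at least 3 from 2 markers and 1.5 times the next. Leiden clusters (resolution 1, 3000 genes, 30 components, 20 neighbours) took the class of over 50% of their gated nuclei. Transcript features came from GENCODE M21 and promoters from RefSeq. Named members were the 15 with the most UMIs and the 3 highest and lowest ratios of each comparison, and of the other lists the 3 highest and lowest. The members and lists were chosen with earlier results of these data known. Median-of-ratios scaling moved dividing against non-dividing log2 ratios of all genes by 0.27. Ratio scripts were checked on simulated counts. Python 3.11.15, scipy 1.17.1 and scanpy 1.11.5 were used.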

Additional observations from a re-analysis of the deposited data

How the results depend on the processing

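Of 80 alternatives tried, 1 turned the direction, the stricter class gate in dividing granule lineage nuclei, and 58 stayed within the limits set for no change. The control ratio of all members in dividing over non-dividing nuclei (3.35) was 3.14 with doublets kept, 2.65 and 3.85 with the dividing gate at 1000 and 4000 CPM, 3.92 with the mitotic list alone, 3.11 from 500 UMIs, 2.77 with size factors and 2.54 per nucleus. The cKO ratio (4.11) was 3.09 and 4.88 with these gates, 5.12 with the mitotic list alone, 3.41 with size factors and 3.15 per nucleus. Over all barcodes the cKO ratio (0.357) was 0.391 from 1000 UMIs, 0.389 without Hist1h2ap and 0.374 per barcode, and in non-dividing nuclei (0.429) it was 0.463 without Hist1h2ap and 0.389 per nucleus. In gated dividing granule lineage nuclei (0.782) it was 0.480 with classes by cluster and 2.05 (0.917 to 4.803) with the stricter class gate, on 18 cKO and 11 control UMIs. With at least 50 UMIs, 22 of 25 members were called in dividing control nuclei, 21 of 25 in the cKO library and 24 of 31 between libraries. The share of all genes called at this minimum was not computed. The values per nucleus, over all dividing nuclei (0.526) and less the droplets (0.810) were added after seeing the data. No paired analysis was possible because each group has 1 library. Depth limits single members below 20 UMIs, which were taken as a sum.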
